A study of Mus musculus with 2 samples.

Results

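Microtubule-associated protein mRNAs were followed in a synaptosome-enriched fraction and in the total homogenate of mouse brain. The genes were Map2, Mapt (tau), Map1a, Map1b, Map4 and Map6, taken by symbol from the transcript tables. All 6 were found among 23329 genes, with 14 of the 30383 listed transcripts. Map2, Map1a, Map1b, Map4 and Map6 were listed under the older symbols Mtap2, Mtap1a, Mtap1b, Mtap4 and Mtap6. The synaptosome group was 1 library from the layer of a Percoll gradient that collects synaptosomes, which are nerve endings sheared off during homogenisation and resealed, often with a piece of the postsynaptic side. The homogenate group was 1 library from brain homogenised in sucrose buffer and not fractionated. Both came from wild-type C57BL/6 mice, the tissue was whole brain, and both titles carry the tags WT1 and CT10, which the labels do not explain. The labels name no treatment, age or sex, and do not say whether both libraries came from the same brain or from pooled brains. The series title gives the purpose as finding mRNAs enriched at synapses.

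Microtubule-associated proteins bind along microtubules and stabilise, bundle or space them. Map2 protein is known from dendrites and cell bodies and its mRNA is carried into dendrites, whereas tau is known chiefly from axons. Map2, tau and Map4 share a family of C-terminal microtubule-binding repeats, and alternative splicing sets how many repeats Map2 carries. Map1a and Map1b are large proteins cut into a heavy and a light chain, Map1b being the form of growing neurons and Map1a that of mature ones. Map6, also called STOP, protects microtubules against cold and drugs. Map4 is made in many cell types outside the nervous system, and also in glia.

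The sequences that distinguish the listed transcripts are given first, because several values below are given per transcript. Transcript shares shifted by at least 10 percentage points between the libraries in 46% of 2575 genes with 2 or more transcripts, so such shifts were common. The Map2 transcripts NM_008632 and NM_001039934 shared 14 exons and differed by 1 exon of 93 bases (chr1:66431527-66431619, mm10, plus strand), which was in NM_001039934 alone. GENCODE M21, an annotation of the same genome build, places this exon wholly in the coding region, as 31 codons in frame, and it encodes an additional microtubule-binding repeat. Map4 has an exon of the same length for the related repeat, at chr9:110072613-110072705 on the plus strand, which was in its 3 long transcripts and not in the short one. Both exons are printed 5′ to 3′ from the GENCODE M21 transcripts, and capitals mark the bases identical in both.
Map2 repeat exon: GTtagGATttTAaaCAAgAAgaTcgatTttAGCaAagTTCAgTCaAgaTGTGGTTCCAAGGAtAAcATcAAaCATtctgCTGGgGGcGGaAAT
Map4 repeat exon: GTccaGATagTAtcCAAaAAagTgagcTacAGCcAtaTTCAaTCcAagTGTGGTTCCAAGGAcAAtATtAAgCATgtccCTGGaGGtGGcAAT
Position by position, 59 of 93 bases (63.4%) were identical between the Map2 and Map4 exons. The tau transcripts differed by a pair of N-terminal coding exons of 87 bases each, present in NM_001038609 and absent from NM_010838. They are shown, in lower case throughout, because they are the whole difference between the listed tau transcripts. All other tau exons were the same in both. Among them was an exon of 93 bases (chr11:104318157-104318249), the length of the Map2 and Map4 repeat exons. Splicing elsewhere in tau, including that of repeat exons, could therefore not be seen here.
Mapt first N-terminal exon, chr11:104287123-104287209: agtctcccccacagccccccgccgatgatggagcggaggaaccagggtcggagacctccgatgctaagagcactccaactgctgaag
Mapt second N-terminal exon, chr11:104289908-104289994: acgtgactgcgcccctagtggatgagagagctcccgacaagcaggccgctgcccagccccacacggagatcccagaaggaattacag

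**Figure D1:**
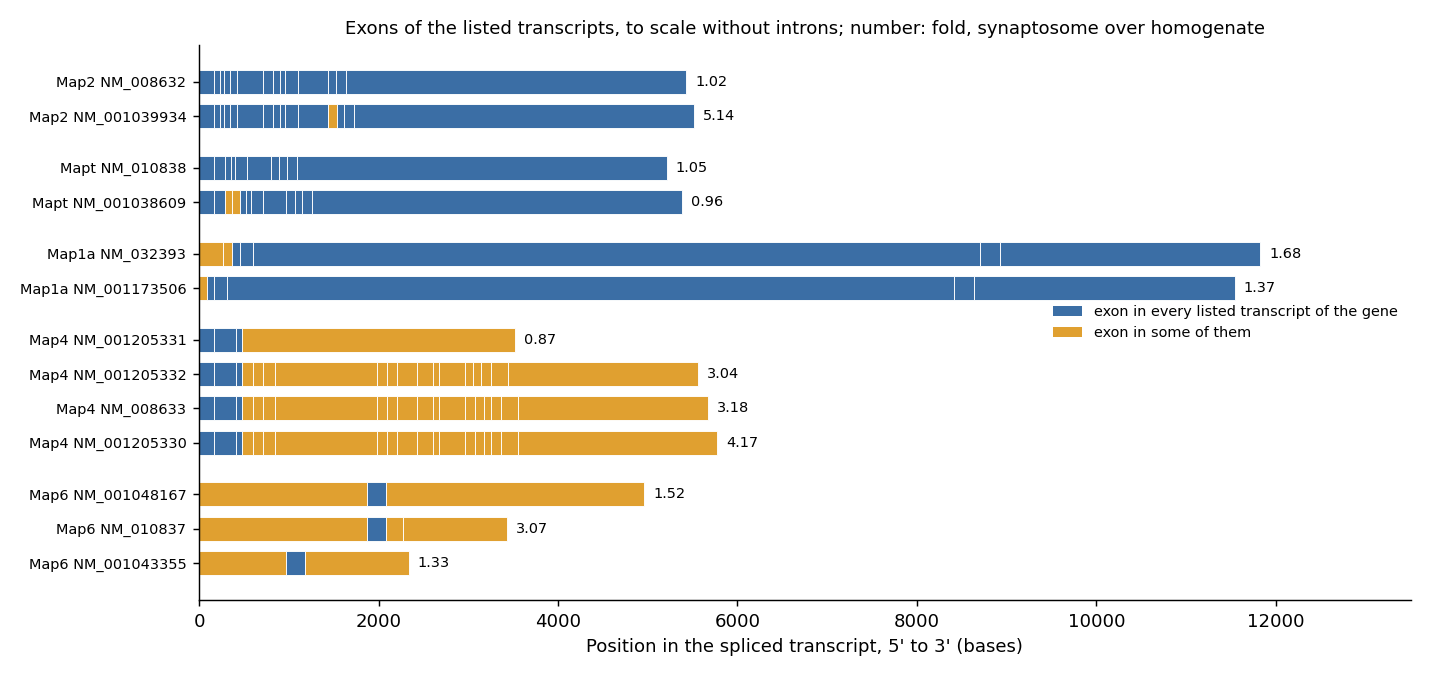
Exons of the listed transcripts of Map2, Mapt, Map1a, Map4 and Map6, drawn to scale in bases along the spliced transcript with introns removed. Blue exons are in every listed transcript of the gene and yellow ones in some, and the number at the right is the TMM-scaled fold, synaptosome fraction over homogenate, which was 5.14 for the Map2 transcript with the additional 93-base exon and 1.02 for the one without it.

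The estimated counts totalled 13709528 in the synaptosome fraction and 15210838 in the homogenate. Neither fraction had a replicate, so no test was possible. Intervals given after each value are exact 95% intervals that cover counting error only, not differences between brains or preparations. Ratios were scaled by TMM, which sets the typical gene near a ratio of 1, and the rule of size asked for a 2-fold difference or more together with an interval clear of 1. By that rule 1807 of 14153 genes (12.8%) were higher in the synaptosome fraction and 1288 (9.1%) were lower, which became 636 and 3629 with library totals in place of TMM. The fractionation showed in marker lists. All 6 endothelial markers and all 5 nuclear noncoding RNAs measured were at least 2-fold lower in the synaptosome fraction, with median log2 ratios of -3.17 and -2.18, while 5 of 6 dendritic mRNAs (median 1.71), 5 of 6 astrocyte markers (1.88), 4 of 6 microglial markers (1.13) and 2 of 6 oligodendrocyte markers (0.37) passed the rule upwards. Among neuronal markers 1 of 6 was lower and 0 higher (median -0.31). Fewer cells or processes of a type and less RNA in each cannot be told apart in such bulk libraries.

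The 6 genes spread across the range instead of moving together. Map4 and Map6 passed the 2-fold rule upwards in the synaptosome fraction, no gene of the 6 was at least 2-fold lower, and all 6 passed the filter on low values. The count of 2 in 6 stands beside the 12.8% of all genes, and it became 0 with library totals or TPM. Their median log2 ratio was 0.41, against -0.01 over all 14153 genes.

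**Figure D2:**
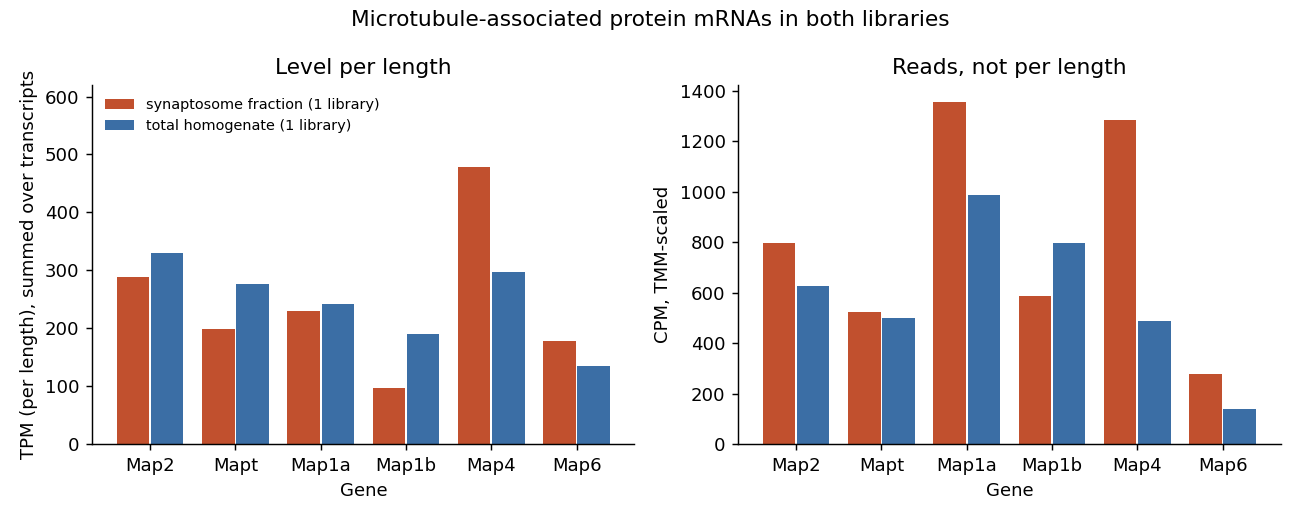
Level of each gene in the synaptosome fraction (orange) and in the homogenate (blue), 1 library each, as TPM (left, per length) and as TMM-scaled CPM (right, not per length). Map4 has the highest TPM of the 6 in the synaptosome fraction, at 478, and Map2 the highest in the homogenate, at 330.

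Map2, the dendritic member (chr1:66175329-66442583, plus strand), had 9230 counts (289 TPM) in the synaptosome fraction and 11285 counts (330 TPM) in the homogenate. Its TMM-scaled ratio was 1.28 (1.24 to 1.31), above that of 66.5% of genes, and its log2 ratio of 0.35 became -0.14 with library totals and -0.19 with TPM. The transcripts behind this total differed. NM_001039934, the transcript with the additional repeat exon, had 2349 counts (72.7 TPM) in the synaptosome fraction and 714 counts (20.6 TPM) in the homogenate, a 5.14-fold higher level (4.72 to 5.59). NM_008632, without that exon, had 6882 counts (217 TPM) in the synaptosome fraction and 10571 counts (310 TPM) in the homogenate, a ratio of 1.02 (0.986 to 1.05). So the transcript with the additional repeat exon passed the 2-fold rule and the other stayed level with the typical gene. The longer form took 25.4% of Map2 counts in the synaptosome fraction (24.6 to 26.4) and 6.33% in the homogenate (5.88 to 6.79), an odds ratio of 5.05 (4.62 to 5.53) that does not depend on the scaling between libraries. The split rests on reads over a 93-base exon and its junctions in a transcript of 5520 bases, and the error of dividing the other reads between the transcripts is not in the interval. In the same pair of libraries the summed TPM of the 6 astrocyte markers was 8461 in the synaptosome fraction and 2723 in the homogenate. That of the 6 oligodendrocyte markers was 21653 and 9284, with no marker at 0 in either list. For the 6 dendritic mRNAs the summed TPM was 5870 in the synaptosome fraction and 2739 in the homogenate. For the 6 neuronal markers it was 3768 and 6748. The part of glial or dendritic RNA in the Map2 split was not tested.

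The listed Map2 transcripts leave out the exon of high-molecular-weight Map2. GENCODE M21 has a coding exon of 3741 bases in Map2 (chr1:66412407-66416147) that distinguishes the large adult forms from the small ones, and 0 deposited exons overlapped it. The Map2 values are therefore counts over the exons of the small forms, many of which the large forms share, and the large forms were not analysed here.

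Tau, the axonal member, had ratios near 1 in total and in both transcripts. Mapt (chr11:104231436-104332093, plus strand) had 6046 counts (198 TPM) in the synaptosome fraction and 9055 counts (276 TPM) in the homogenate, a ratio of 1.04 (1.01 to 1.08), whose log2 value of 0.06 became -0.01 with upper-quartile scaling and -0.43 with library totals. NM_010838, without the N-terminal exons, had 5660 and 8427 counts in the synaptosome fraction and the homogenate. NM_001038609, with both, had 386 counts in the synaptosome fraction and 628 in the homogenate. The form with the N-terminal exons made up 6.38% of tau counts in the synaptosome fraction (5.78 to 7.03) and 6.94% in the homogenate (6.42 to 7.48). These intervals overlap, and the odds ratio of 0.915 had an interval of 0.80 to 1.05 that includes 1, so a shift in N-terminal splicing was not detectable at this depth. A transcript with only the first of the N-terminal exons was not listed.

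Map2 and tau differed from each other in these libraries by more than counting error. The Map2 log2 ratio exceeded that of tau by 0.29 (0.23 to 0.35), a difference that no scaling between libraries can alter. Per length, Map2 had 1.46 times the TPM of tau in the synaptosome fraction and 1.197 times in the homogenate. All 15 pairs among the 6 genes gave a difference whose counting interval excluded 0, which at such counts is a low bar and says nothing of the spread between brains.

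**Figure D3:**
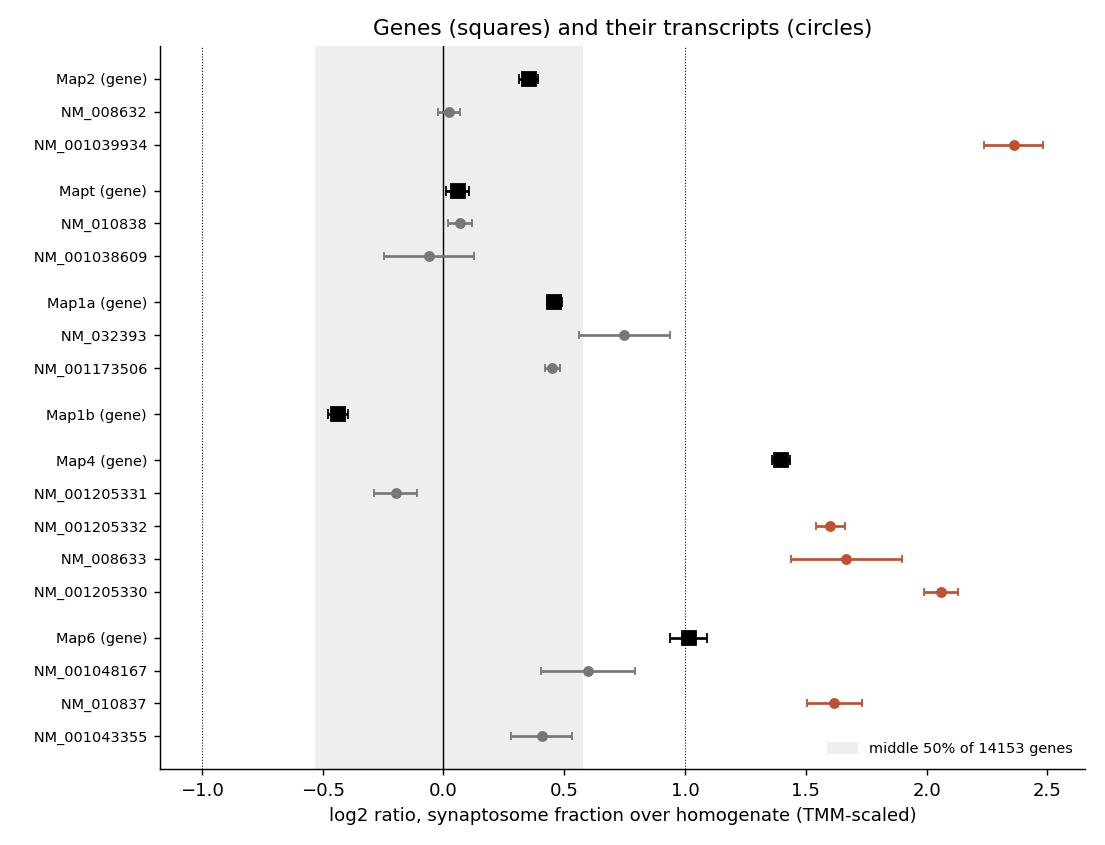
Log2 ratio, synaptosome fraction over homogenate, of each gene (black squares) and of each transcript of genes with more than 1 (circles, orange where at least 2-fold higher), with exact 95% counting intervals. Map1b has 1 transcript and is shown as a gene alone; the grey band is the middle 50% of all genes, dotted lines mark 2-fold, and 5 transcripts of Map2, Map4 and Map6 lie beyond 2-fold while none lies below.

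The large proteins Map1a and Map1b lay on either side of the typical gene under TMM, neither past 2-fold. Map1a, of mature neurons (chr2:121289602-121310832, plus strand), had 15668 counts (230 TPM) in the synaptosome fraction and 17795 counts (243 TPM) in the homogenate, a ratio of 1.37 (1.35 to 1.40), whose log2 value of 0.46 became -0.03 with library totals and -0.08 with TPM. Map1b, of growing neurons and a known target of the translational repressor Fmrp (chr13:99421464-99516602, minus strand), had 6798 counts (97.1 TPM) in the synaptosome fraction and 14371 counts (191 TPM) in the homogenate, which is 1.35-fold lower (1.32 to 1.39). Map1b had the lowest ratio of the 6, with 28.8% of genes below it, and stayed below 1 under the 5 alternatives run. Its log2 ratio of -0.44 became -0.93 with library totals and -0.98 with TPM. The log2 ratio of Map1a exceeded that of Map1b by 0.90 (0.84 to 0.95), so that Map1a TPM was 2.37 times that of Map1b in the synaptosome fraction and 1.27 times in the homogenate. Both mRNAs are long, with listed lengths between 11539 and 11852 bases, so they differ little in length.

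Map1a was read almost wholly from 1 of its start sites. NM_001173506, whose own first exon is noncoding, had 96.9% of Map1a counts in the synaptosome fraction and 97.5% in the homogenate. NM_032393, which starts upstream with a pair of other exons, had 480 counts in the synaptosome fraction and 446 in the homogenate. Its share was 3.06% in the synaptosome fraction (2.80 to 3.35) and 2.51% in the homogenate (2.28 to 2.75), an odds ratio of 1.23 (1.08 to 1.40). In the posterior estimates that the authors also deposited the shares were 3.06% and 2.94%, so this difference depends on the estimate used.

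Map4 had the highest ratio of the 6. The gene (chr9:109931774-110083954, plus strand) had 14836 counts (478 TPM) in the synaptosome fraction and 8788 counts (297 TPM) in the homogenate, and was 2.64-fold higher in the synaptosome fraction (2.57 to 2.71), with a lower ratio in 94.4% of genes. With library totals in place of TMM its log2 ratio of 1.40 became 0.91, and with TPM 0.69, both short of 2-fold. Its transcripts divided into long ones, which contain the microtubule-binding repeats, and a short one that ends early. The 3 long transcripts together had 13267 counts in the synaptosome fraction and 5978 in the homogenate, 3.47-fold higher (3.36 to 3.57). NM_001205331, which keeps the 3 first exons and then ends in its own last exon of 3039 bases, had 1569 counts in the synaptosome fraction and 2809 in the homogenate, 1.15-fold lower (1.08 to 1.22). The short transcript, which lacks the repeat exons, thus had a ratio below 1 beside long ones that all passed the 2-fold rule. The long transcripts held 89.4% of Map4 counts in the synaptosome fraction (88.9 to 89.9) and 68.0% in the homogenate (67.0 to 69.0), an odds ratio of 3.97 (3.71 to 4.26). Per length, the short transcript held 16.1% of Map4 TPM in the synaptosome fraction and 43.2% in the homogenate.

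The long Map4 transcripts also differed among themselves. NM_001205330 had 5970 counts in the synaptosome fraction and 2235 in the homogenate, 4.17-fold higher (3.97 to 4.38). NM_001205332 had 6813 counts in the synaptosome fraction and 3505 in the homogenate, 3.04-fold higher (2.91 to 3.16). NM_008633, the least abundant, had 484 and 238 counts in the synaptosome fraction and the homogenate, 3.18-fold higher (2.71 to 3.72). NM_001205330 and NM_008633 hold a coding exon of 114 bases that NM_001205332 lacks (chr9:110071026-110071139, plus strand), just before the repeat exon printed above. It is shown as the exon that this pair has in common and NM_001205332 lacks.
Map4 114-base exon: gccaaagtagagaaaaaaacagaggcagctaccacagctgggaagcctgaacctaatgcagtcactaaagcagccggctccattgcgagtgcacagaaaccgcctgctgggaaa
The share of long Map4 counts with this exon was 48.6% in the synaptosome fraction and 41.4% in the homogenate, an odds ratio of 1.34 (1.26 to 1.43). The transcripts with the exon were not alike. The interval of NM_008633 (2.71 to 3.72) included the 3.04-fold of NM_001205332, which lacks the exon, and NM_001205330 lay higher. NM_001205330 also has a longer last exon (2220 bases, against 2114), and NM_008633 an exon of 116 bases in place of 113, so reads from those places also enter the estimate. Beside the astrocyte and oligodendrocyte values given with Map2, the summed TPM of the 6 microglial markers was 538 in the synaptosome fraction and 313 in the homogenate, and that of the 6 endothelial markers 14.7 and 215. The part of these cells' RNA in the Map4 ratio was not tested.

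Map6, the cold-stability protein, stood at the edge of the 2-fold rule. The gene (chr7:99267447-99337137, plus strand) had 3219 counts (178 TPM) in the synaptosome fraction and 2486 counts (135 TPM) in the homogenate, 2.02-fold higher (1.92 to 2.13), so the interval reached below 2-fold. Its log2 ratio of 1.02 became 0.94 with upper-quartile scaling and 0.52 with library totals. Of its transcripts 1 passed the 2-fold rule. NM_010837, the only one with both the 197-base coding exon and the downstream last exon of 1153 bases, had 1855 counts in the synaptosome fraction and 943 in the homogenate, 3.07-fold higher (2.84 to 3.33). NM_001043355, which starts within the first exon and skips the 197-base exon, had 938 and 1105 counts in the synaptosome fraction and the homogenate, a ratio of 1.33 (1.21 to 1.45). NM_001048167, which ends by reading on from that exon, had 426 and 439 counts in the synaptosome fraction and the homogenate, a ratio of 1.52 (1.32 to 1.74). NM_010837 thereby took 57.6% of Map6 counts in the synaptosome fraction (55.9 to 59.3) and 37.9% in the homogenate (36.0 to 39.9), an odds ratio of 2.22 (2.00 to 2.48).

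**Figure D4:**
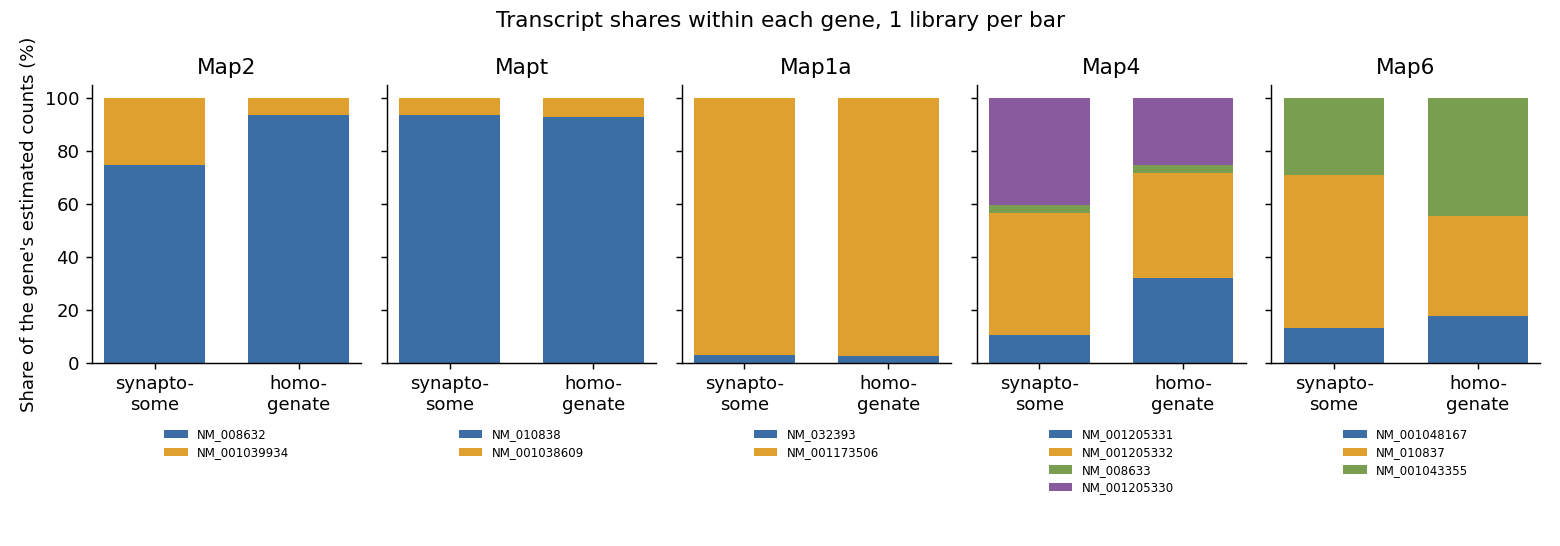
Share of each gene's estimated counts held by each listed transcript, in percent, with the synaptosome fraction at the left and the homogenate at the right of each panel, 1 library per bar. In Map2 the transcript with the additional repeat exon (yellow) holds 25.4% and 6.33%, in Map4 the short transcript (blue) holds 10.6% and 32.0%, and the bars of Mapt and Map1a nearly match.

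Across the 6 genes, 5 of 14 transcripts were at least 2-fold higher and none was at least 2-fold lower, beside 16.2% and 13.5% of 17610 transcripts measured. The same 5 transcripts passed 2-fold upwards under library totals, DESeq2 size factors, upper-quartile scaling and TPM. A shift of at least 10 percentage points in a transcript share occurred in 3 of the 5 genes with more than 1 transcript, namely Map4 (21.4 points), Map6 (19.7) and Map2 (19.1). Such shifts were common in these libraries: 46% of 2575 genes with at least 100 counts in each library passed the same limit, with a median largest shift of 8.75 points. Among genes with at least 1000 counts in each library, as these genes had, 273 of 754 passed it. Shifts of this size are therefore not particular to these genes, while Mapt (0.552 points) and Map1a (0.559) shifted by less than the median of the 2575 genes.

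Other genes that act on microtubules, tau or Map2 mostly lay nearer to or below the typical gene. Of 65 genes in 7 lists, 63 passed the filter, 4 were at least 2-fold higher, 0 at least 2-fold lower, and their median log2 ratio was -0.23. The share of higher genes can be set beside 12.8% of all genes and that of lower ones beside 9.1%. Library totals shift each of these log2 ratios by -0.49. Among the genes named in the lists, that shift takes Dst and Ppp2r2c short of 2-fold higher, turns Tppp, Gsk3a, Dclk2 and Katnal1 to below 1, and takes Map7d2, Dclk3, Stmn1, Stmn2, Dpysl2, Fign, Cdk5 and Ppp2r2a past 2-fold lower.

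Further structural microtubule-associated proteins held 0 of 11 measured members past 2-fold (median -0.17). Map1lc3b, an autophagy protein that is related to the Map1 light chains, was the highest at 1.61-fold (1.54 to 1.69), and Tppp, which promotes tubulin polymerisation in oligodendrocytes, stood at 1.301-fold (1.26 to 1.34). Map7d2, related to the kinesin cofactor Map7, was the lowest at 1.95-fold lower (1.81 to 2.10). The 4 doublecortin family genes had a median of -0.57 and none passed 2-fold. Dclk1, a doublecortin-like kinase and the most abundant of them, was 1.17-fold lower (1.14 to 1.205), Dclk3 1.91-fold lower (1.67 to 2.20), and Dclk2 had a ratio of 1.04 (0.952 to 1.14). The 4 stathmins, which sequester tubulin, all had ratios below 1, with a median of -0.62, and none passed 2-fold. Stmn1 was 1.59-fold lower (1.54 to 1.65), Stmn2 1.83-fold lower (1.75 to 1.91) and Stmn3 1.301-fold lower (1.24 to 1.36).

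Among 16 end-binding and crosslinking proteins 2 were at least 2-fold higher and 0 lower (median -0.14). Apc, which binds microtubule plus ends and beta-catenin, had 13660 counts in the synaptosome fraction and 6873 in the homogenate, 3.10-fold higher (3.01 to 3.20). Dst, a giant crosslinker of microtubules and actin, was 2.21-fold higher (2.14 to 2.28), and Dpysl2, the tubulin-binding protein Crmp2, 1.90-fold lower (1.77 to 2.03). Of 6 severing enzymes measured, 0 passed 2-fold in either direction (median -0.36). Katnal1, a katanin-like enzyme, had a ratio of 1.04 (0.963 to 1.13), Spast, the enzyme spastin, was 1.25-fold lower (1.12 to 1.39), and Fign, read from 31 and 80 counts in the synaptosome fraction and the homogenate, 1.65-fold lower (1.08 to 2.59).

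Of 15 kinases and kinase activators that act on tau or Map2, 1 was at least 2-fold higher and 0 lower (median 0.03). It was Ttbk1, a brain tau-tubulin kinase, with 1858 counts in the synaptosome fraction and 1023 in the homogenate, 2.84-fold higher (2.63 to 3.06). Cdk5r2, an activator of Cdk5, stood at 1.49-fold (1.42 to 1.55), Gsk3a at 1.15-fold (1.10 to 1.21), and Cdk5 itself was 1.497-fold lower (1.38 to 1.62). Of 7 subunits of protein phosphatase 2A, which dephosphorylates tau, 1 was at least 2-fold higher and 0 lower (median -0.40). Ppp2r2c, a brain regulatory subunit, was 2.20-fold higher (2.14 to 2.27), whereas the scaffold subunit Ppp2r1a was 1.39-fold lower (1.34 to 1.44) and Ppp2r2a, another regulatory subunit, 1.74-fold lower (1.60 to 1.89).

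**Figure D5:**
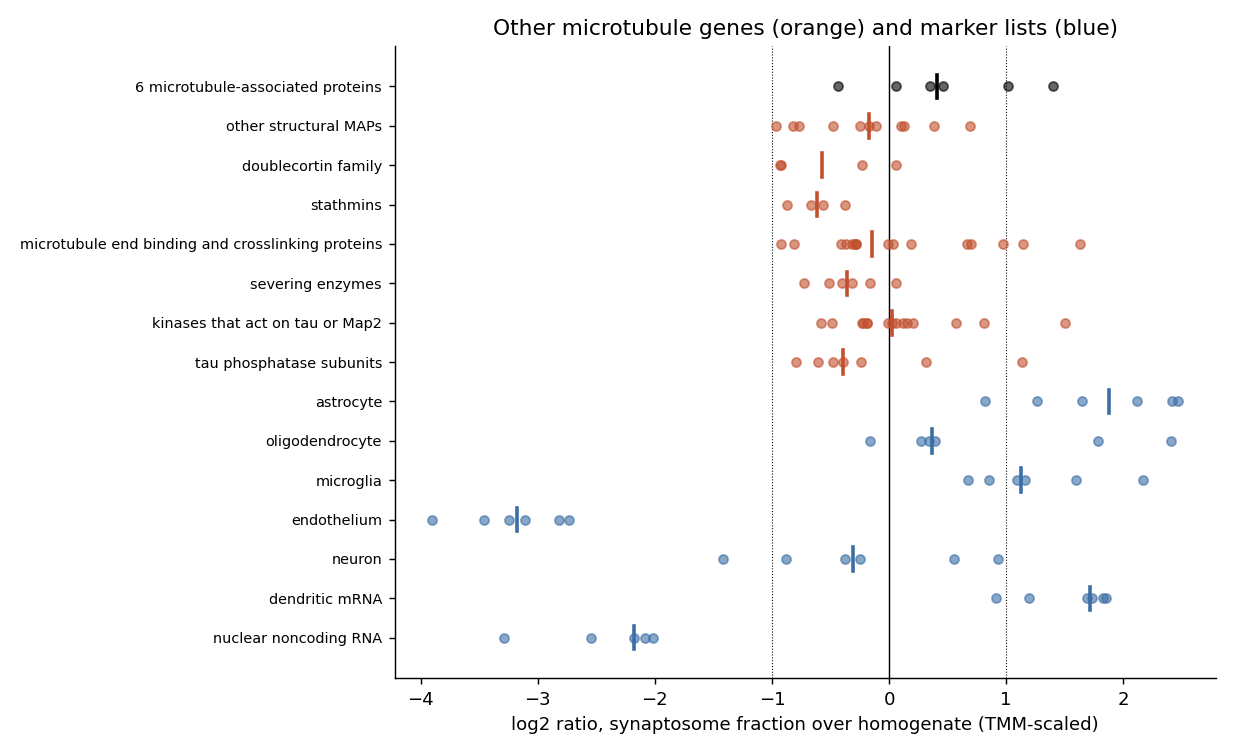
Log2 ratio, synaptosome fraction over homogenate, of each measured gene (points) with the list median (bar). Shown are the 6 microtubule-associated proteins (black), 7 lists of other genes that act on microtubules, tau or Map2 (orange) and 7 marker lists (blue). Dotted lines mark 2-fold. Of the marker list medians, that of the oligodendrocyte list (0.37) lies nearest to the black median of 0.41. Those of the microglial (1.13), dendritic mRNA (1.71) and astrocyte (1.88) lists lie above it. Those of the neuronal (-0.31), nuclear noncoding RNA (-2.18) and endothelial (-3.17) lists lie below it.

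The genes nearest to Map2 in level in both libraries (distance on the log2 CPM scale, 2 libraries) were Gnb1, Eif4g2 and Itm2b. Gnb1 had 763 CPM in the synaptosome fraction and 599 CPM in the homogenate, against 799 and 625 CPM for Map2. Nearest to Mapt, with 523 and 502 CPM, were Nedd4 (510 and 503 CPM), Pgam1 (508 and 499 CPM) and Slc25a4 (545 and 479 CPM). With 2 libraries, such likeness is a description of level only.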

How the data were processed

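RNA was prepared as mRNA libraries with a strand-keeping kit, per the labels' protocols, which do not say whether reads were paired or single in these libraries. Named without roles, per the submitters' processing notes, were mm10, RSEM 1.2.5, TopHat 1.3.3, FastQC and edgeR 3.0.6. The authors deposited expected counts and posterior count estimates per transcript, TPM, FPKM (not used) and a table with 1 signal value per gene. The deposited expected counts were summed per gene and rounded. TMM factors (edgeR 4.0.16) were 0.843 for the synaptosome fraction and 1.19 for the homogenate, and genes averaging 1 CPM or more were kept. Ratios have Clopper-Pearson intervals, and shares and pairs exact conditional odds ratios. PCR copies are not independent molecules. The calculation was tested on simulated counts. Alternatives were library totals, DESeq2 1.42.0 size factors, upper quartile, TPM, the signal, other filters and a 1.5-fold rule.

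The members and lists were chosen with earlier results of these data known. Named from each list were the 2 most abundant genes and those with the highest and lowest ratio. Other symbols were matched through RefSeq synonyms. Estimates divide reads among overlapping transcripts, an error not measured here. Calculations used Python 3.11.15, scipy 1.17.1 and R 4.3.3.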

Additional observations from a re-analysis of the deposited data

How the results depend on the processing

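Library totals in place of TMM moved every log2 ratio by -0.49, and the median of all genes became -0.51 (-0.55 with TPM). Genes at least 2-fold higher then numbered 636, or 572 with TPM, and genes at least 2-fold lower 3629, or 3930 with TPM. With a mean of at least 10 CPM, 578 genes were lower, and at 1.5-fold 3391 were higher and 2954 lower. Of the 6 genes studied, 0 were at least 2-fold higher under library totals and 0 with TPM, and 1, Map4, with upper-quartile scaling, and their median became -0.087 with library totals and -0.14 with TPM. Map2 and Map1a lay at -0.14 and -0.03 under library totals, so their position above 0 is relative to the typical gene, and Mapt lay at -0.01 with upper-quartile scaling. Map1b stayed below 0, and Map4 and Map6 above it, under all 5 alternatives. Pair differences kept their sign with TPM in 15 of 15 pairs and moved by at most 0.17. With at least 1000 counts per gene, 273 of 754 genes had a share shift of at least 10 points. Posterior estimates, an alternative chosen after seeing the data like the transcript scalings, moved no share by more than 0.579 points, and TPM shares moved by up to 12.5 points. No paired analysis was possible because each fraction had 1 library.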
